A study of Rattus norvegicus with 24 samples.

Results

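The unfolded protein response and the integrated stress response of rat liver were followed through 7 genes, chosen by their Ensembl identifiers. They are Hspa5 (ENSRNOG00000018294), Xbp1 (ENSRNOG00000010298), Atf4 (ENSRNOG00000017801), Ddit3 (ENSRNOG00000006789), Atf3 (ENSRNOG00000003745), Trib3 (ENSRNOG00000007319) and Asns (ENSRNOG00000007546). All 7 of these were found among the 18056 genes of the deposited tables, and all 7 passed the filter on low counts in every comparison. The livers came from rats about 48 days old, in 4 groups of 6 animals: males from air-exposed dams, males from ozone-exposed dams, and the same for females. The dams, 12 per exposure, had breathed either filtered air or ozone at 0.8 ppm for 4 hours on each of gestation days 5 and 6. Every animal used here, offspring of air-exposed dams included, had itself breathed ozone in postnatal weeks 5, 6 and 7, at 0.4 ppm in week 5 and 0.8 ppm afterwards. The 4 groups therefore differ in sex and in what the dam breathed, and none of them is unexposed. The labels name neither strain nor litter, replicates are numbered here in accession order, and the tissue label was not checked against markers, because the tables do not pair identifiers with symbols. Littermates may be present, and the p-values below count only the spread between these animals.

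Proteins that enter the endoplasmic reticulum (ER) are folded there with the help of chaperones, and the hepatocyte, which secretes most plasma proteins, depends on this machinery. When unfolded protein builds up, the sensors IRE1, PERK and ATF6 start the unfolded protein response, which raises chaperone genes through XBP1 and ATF6. PERK also phosphorylates the translation factor eIF2α, as do other kinases that sense amino acid shortage, viral RNA or heme shortage. This integrated stress response lowers general translation but favours translation of the transcription factor ATF4, whose targets include Ddit3, Atf3, Trib3 and Asns. Much of this control is exerted on splicing, protein cleavage and translation. Gene-level RNA counts do not record the spliced form of Xbp1 or the translation of Atf4.

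The promoters of 6 of the 7 genes were found by symbol in RefSeq's sequences for the build GRCr8, and Atf3 was not matched. The 250 bases before the annotated start are shown for Hspa5, whose ER stress response element is the best known in this family. They are also shown for Xbp1, the other gene with an exact match to that element, and for Atf4 and Ddit3, on which the results below turn. Capitals mark exact matches to that element, written as CCAAT, then any 9 bases, then CCACG, searched on both strands. The Atf4 and Ddit3 windows hold no exact match and so no capitals. Near matches were not searched for, so an element that differs by a single base would not be marked.

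Hspa5, chr3:38452766-38453015, plus strand: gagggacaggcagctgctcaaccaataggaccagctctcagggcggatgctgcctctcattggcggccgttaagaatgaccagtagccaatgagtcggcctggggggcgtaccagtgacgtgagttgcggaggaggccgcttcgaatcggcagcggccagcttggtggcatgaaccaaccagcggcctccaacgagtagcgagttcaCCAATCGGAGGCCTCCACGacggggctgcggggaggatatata

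Xbp1, chr14:84604373-84604622, plus strand: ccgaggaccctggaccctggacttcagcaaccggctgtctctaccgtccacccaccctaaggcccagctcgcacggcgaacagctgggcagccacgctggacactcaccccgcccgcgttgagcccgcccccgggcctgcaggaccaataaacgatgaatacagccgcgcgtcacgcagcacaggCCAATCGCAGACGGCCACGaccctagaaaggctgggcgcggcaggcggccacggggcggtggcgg

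Atf4, chr7:113684431-113684680, plus strand: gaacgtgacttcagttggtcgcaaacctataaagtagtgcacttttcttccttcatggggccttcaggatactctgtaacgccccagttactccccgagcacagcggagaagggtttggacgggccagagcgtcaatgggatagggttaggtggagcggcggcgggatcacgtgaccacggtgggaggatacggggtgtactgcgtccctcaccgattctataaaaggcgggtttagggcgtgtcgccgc

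Ddit3, chr7:65001445-65001694, plus strand: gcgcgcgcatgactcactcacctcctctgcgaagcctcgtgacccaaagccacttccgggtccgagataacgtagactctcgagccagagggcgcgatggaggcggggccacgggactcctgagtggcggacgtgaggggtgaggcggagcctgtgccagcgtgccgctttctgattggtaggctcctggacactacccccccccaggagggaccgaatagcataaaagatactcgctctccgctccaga

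The match in Hspa5 lay 43 to 25 bases before the start, and that in Xbp1 65 to 47 bases before it. Of 33469 promoter windows in the same table, 22 (0.0657%) held the element in the 250 bases before the start. Trib3 held 1 match, 21 to 14 bases before its start, to a C/EBP-ATF response element (TGATG, any 1 base, then AA), which 3.4% of windows contained. The related elements ATTGG, any 1 base, then CCACG (0.0418% of windows), TGACGTGG (0.52%) and TGACGTCA (1.59%) were searched on both strands and matched none of the 6 promoters. These are matches of letters and say nothing of binding in these livers.

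Levels are given as CPM, the estimated count relative to the library's total after TMM, edgeR's normalization for library composition. A gene is called where the edgeR quasi-likelihood test, adjusted over all genes tested by the method of Benjamini and Hochberg, gave a p under 0.05. Totals ran from 8462290 to 14564700 counts in 23 libraries, and the remaining one, from a female of an ozone-exposed dam (replicate 6), had 36232100. Hspa5, Xbp1 and Atf4 rested on 817 counts or more in every library. Ddit3 rested on 30 to 139 counts, Trib3 on 25 to 198, Atf3 on 10 to 49 and Asns on 3 to 34, so the last 2 carried the most counting error. Library names come in 2 forms, which were treated as 2 library sets (10 and 14 libraries), and the set was a term in each test. Rat numbers run in separate ranges for the 4 groups, so an order of handling cannot be told apart from the group.

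**Figure D1:**
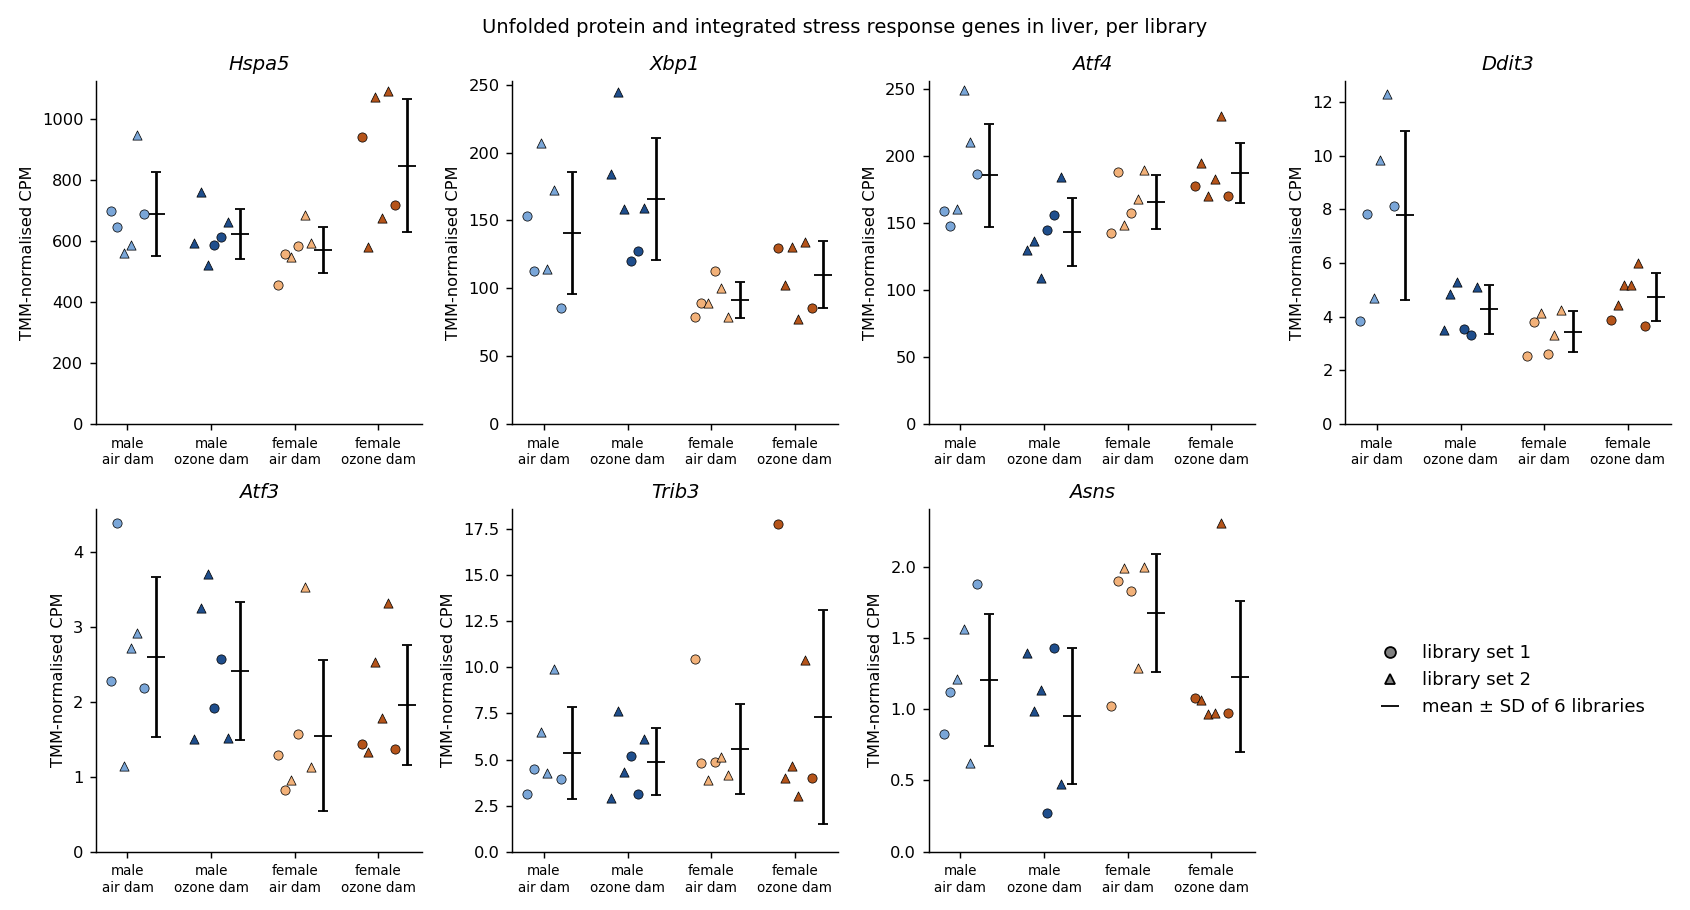
Level of each gene in every liver library (points; y axis, TMM-normalised CPM from 0) in the 4 groups of 6, with circles for library set 1, triangles for set 2 and bars for mean ± SD. Ddit3 is highest in males from air-exposed dams, at 7.78 CPM on average, and the groups overlap in every panel.

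Ddit3 was lower in males from ozone-exposed dams than in males from air-exposed dams, the only call among the 7 within a sex. The maternal difference of Ddit3, Atf4 and Hspa5 was more negative in males than in females, by a test of that difference itself. Xbp1 and Ddit3 were higher in males than in females where the dams had breathed air, and Atf3, Trib3 and Asns were called in no comparison. Because whole liver was sequenced, a change in the number of cells of a type and a change in RNA per cell cannot be told apart.

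Hspa5 encodes BiP, the main ER chaperone, which also keeps the stress sensors inactive. In females from air-exposed dams its level ran from 454 to 685 CPM with a median of 569, and in females from ozone-exposed dams from 578 to 1091 with a median of 828. In males it ran from 562 to 948 CPM (median 665) with air-exposed dams and from 521 to 760 (median 602) with ozone-exposed dams. Of the 4 highest values among all 24, 3 came from females of ozone-exposed dams (939.6, 1070 and 1091 CPM) and 1 from a male of an air-exposed dam (948). The other 3 females of ozone-exposed dams held 578, 676 and 717 CPM. The means were 569.6 ± 74.8 and 845 ± 217 CPM in females (SD, n = 6 each), a log2 difference of 0.56 ± 0.17 (SE) that did not pass the test (edgeR adjusted p = 0.139).

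In males the Hspa5 means were 687 ± 139 and 622 ± 81.4 CPM (SD, n = 6 each), with a log2 difference of -0.16 ± 0.14 (adjusted p = 0.466). The maternal difference was 0.72 ± 0.21 log2 units more negative in males than in females, and this passed the test of the interaction (-0.72, edgeR adjusted p = 0.0177). It stayed past the threshold with any 1 of the 24 libraries left out (adjusted p at most 0.0414, without male air-dam replicate 5). Within set 1 alone the value was -0.82 (adjusted p = 0.0954) and within set 2 alone -0.62 (0.277), with fewer animals in each. DESeq2 called Hspa5 in females (log2 difference 0.55, adjusted p = 0.0437), and edgeR's adjusted p in females ranged from 0.0816 to 0.301 with 1 animal left out.

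Xbp1 encodes the transcription factor whose mRNA IRE1 splices, and total Xbp1 RNA is itself raised by ATF6. Its promoter, like that of Hspa5, holds the ER stress response element printed above, and its call was for sex, with air-exposed dams. Levels ran from 85.2 to 207 CPM (median 134) in males from air-exposed dams and from 120 to 244 (median 159) in males from ozone-exposed dams. In females they ran from 78.9 to 113 CPM (median 89.1) and from 77.7 to 134 (median 116). With air-exposed dams 4 of 6 males exceeded every female, and with ozone-exposed dams also 4 of 6.

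With air-exposed dams the Xbp1 means were 141 ± 44.9 CPM in males and 91.5 ± 13.1 in females (SD, n = 6 each), and males were 1.51-fold higher (log2 difference 0.60 ± 0.18 SE, edgeR adjusted p = 0.00823). That call was kept with each of the 24 libraries left out in turn. It held in library set 2 alone (0.88, adjusted p = 0.0107) but not in set 1 alone (0.33, adjusted p = 0.305). With ozone-exposed dams the means were 166 ± 45.1 and 110 ± 24.7 CPM, a log2 difference of 0.57 ± 0.18 that missed the threshold (adjusted p = 0.0649; 0.0342 with DESeq2). The difference between these 2 sex differences was -0.027 ± 0.26 (interaction, adjusted p = 0.952). The maternal log2 differences were 0.14 ± 0.17 in males and 0.28 ± 0.16 in females (adjusted p = 0.602 and 0.405).

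Atf4 encodes the transcription factor at the centre of the integrated stress response. Its level ran from 148 to 249 CPM (median 174) in males from air-exposed dams and from 109 to 184 (median 141) in males from ozone-exposed dams. Of the 6 males from ozone-exposed dams, 4 lay below all males from air-exposed dams. In females it ran from 142 to 189.5 CPM (median 163) with air-exposed dams and from 170 to 229.8 (median 180.1) with ozone-exposed dams. Of the 6 females from ozone-exposed dams 2 lay above all females from air-exposed dams, and 4 of the latter lay below all of the former.

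The Atf4 means in males were 186 ± 38.4 and 143 ± 25.5 CPM (SD, n = 6 each), a log2 difference of -0.38 ± 0.14 (SE) that did not pass (edgeR adjusted p = 0.0672). It passed where all 24 libraries shared 1 fit (-0.38, adjusted p = 0.0368), and without male air-dam replicate 3 or male ozone-dam replicate 6 (adjusted p = 0.0454 and 0.0463). In females the means were 166 ± 19.99 and 188 ± 22.6 CPM (SD, n = 6 each), with a log2 difference of 0.17 ± 0.11 (adjusted p = 0.48). The difference between these differences was -0.54 ± 0.18 and was called (edgeR adjusted p = 0.0333). Of the 3 such calls it was the one lost on leaving out single libraries, in 7 of 24 fits, namely without male air-dam replicates 4, 5 and 6, male ozone-dam replicates 1 and 3, female air-dam replicate 3 and female ozone-dam replicate 5, with adjusted p up to 0.0677. It was -0.23 in library set 1 alone and -0.76 in set 2 alone (adjusted p = 0.61 and 0.0959).

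Ddit3 encodes CHOP, the transcription factor through which prolonged ER stress favours cell death, and of the 7 genes it gave the largest maternal difference in males, the largest interaction and the largest sex difference with air-exposed dams. In males from air-exposed dams the 6 livers held 3.84, 4.70, 7.85, 8.14, 9.83 and 12.3 CPM. In males from ozone-exposed dams they held 3.34, 3.49, 3.56, 4.84, 5.10 and 5.30 CPM. Thus 4 of 6 males from air-exposed dams lay above all males from ozone-exposed dams, and the other 2 lay within their range. The means were 7.78 ± 3.16 and 4.27 ± 0.90 CPM (SD, n = 6 each), and Ddit3 was 1.89-fold lower with ozone-exposed dams (log2 difference -0.92 ± 0.24 SE, edgeR adjusted p = 0.0142).

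In 11 of 12 fits with 1 male left out, the fall of Ddit3 was still called. The exception was the male of an air-exposed dam with the highest value, replicate 5, without which it was -0.77 (adjusted p = 0.0527). The size was alike in both library sets, at -0.95 in set 1 and -0.89 in set 2, but neither set alone passed (adjusted p = 0.139 and 0.15). Within groups, the Ddit3 values of the sets overlapped in all but the females from ozone-exposed dams, where the set 1 libraries held 3.67 and 3.86 CPM and the 4 set 2 libraries 4.45 to 5.99.

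In females Ddit3 ran from 2.52 to 4.26 CPM (median 3.56) with air-exposed dams and from 3.67 to 5.99 (median 4.81) with ozone-exposed dams. Of the 6 females from ozone-exposed dams, 4 lay above all females from air-exposed dams. The means were 3.44 ± 0.75 and 4.72 ± 0.89 CPM (SD, n = 6 each), a log2 difference of 0.39 ± 0.16 that did not pass (edgeR adjusted p = 0.252). The maternal difference was thus 1.30 ± 0.28 log2 units more negative in males (-1.30, edgeR adjusted p = 0.00237). This call was kept with each of 24 libraries left out (adjusted p at most 0.00603). The value was -1.28 in set 1 alone and -1.31 in set 2 alone, where the call was lost (adjusted p = 0.143 and 0.0588).

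With air-exposed dams 5 of 6 males lay above every female, and the males were 2.24-fold higher (log2 difference 1.17 ± 0.20 SE, edgeR adjusted p = 3.74e-05). This was called under all 30 alternatives, each library set alone included (1.16 and 1.18, adjusted p = 0.0173 and 0.00527). The fit for the sex differences and the interaction used 1 estimate of spread for all 4 groups. For Ddit3 the SD was 40.6% of the mean in males from air-exposed dams, but 18.8% to 21.8% in the other groups. The SE and p of these tests therefore do not reflect the wider spread of that male group alone. With ozone-exposed dams the male and female means were 4.27 and 4.72 CPM, and the log2 difference was -0.13 ± 0.20 (adjusted p = 0.792). The interaction above is also the test that these sex differences differ. Estimated counts more than 0.01 from a whole number, which arise where reads are divided between features, occurred for Ddit3 in 2 of 24 libraries and for Hspa5 in 1.

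**Figure D2:**
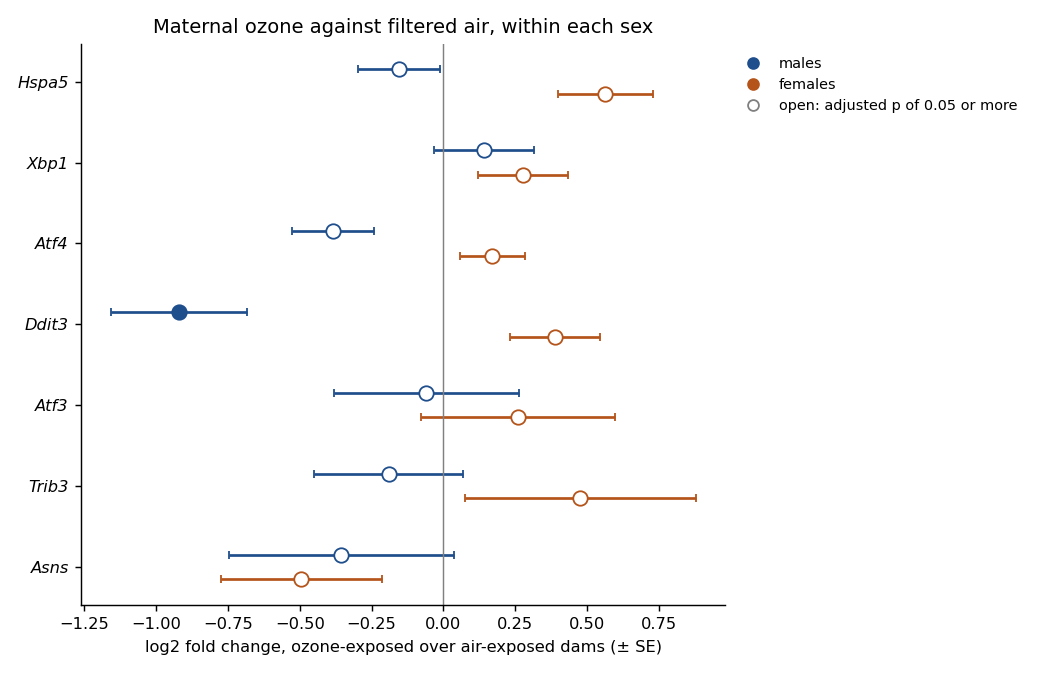
Log2 fold change of each gene (x axis, ozone-exposed over air-exposed dams, ± SE) in males and females, 12 libraries per fit; filled points have an edgeR adjusted p under 0.05. Ddit3 in males, at -0.92, is the filled point, and Hspa5 in females, at 0.56, is open.

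Atf3, Trib3 and Asns, which lie downstream of ATF4, were at low levels and varied widely within groups. Atf3 encodes a stress-induced transcription factor of the same family. Its lowest, median and highest values were 1.14, 2.50 and 4.39 CPM in males from air-exposed dams and 1.51, 2.25 and 3.71 in males from ozone-exposed dams. In females they were 0.827, 1.21 and 3.54 CPM with air-exposed dams and 1.33, 1.61 and 3.32 with ozone-exposed dams. The groups overlapped throughout, and the maternal log2 differences were -0.060 ± 0.32 in males and 0.26 ± 0.34 in females (edgeR adjusted p = 0.917 and 0.742). With air-exposed dams males were above females by 0.79 ± 0.35, short of the threshold (adjusted p = 0.0618). Without female air-dam replicate 5, the one high female, this became 1.16 (adjusted p = 0.00643), and without male air-dam replicate 3 it became 0.99 (0.0176). In set 1 alone it was 1.27 (0.0317).

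Trib3 encodes a pseudokinase that binds ATF4 and CHOP and restrains insulin signalling through AKT. Males from air-exposed dams ranged from 3.11 to 9.91 CPM (median 4.38) and males from ozone-exposed dams from 2.91 to 7.61 (median 4.76). Females from air-exposed dams ranged from 3.90 to 10.4 CPM (median 4.84) and females from ozone-exposed dams from 3.002 to 17.8 (median 4.33). Single livers set the female spread: replicate 1 of the ozone-dam group held 17.8 CPM, its replicate 5 held 10.4, and the other 4 held 3.002 to 4.65. The maternal log2 difference in females was 0.48 ± 0.40 (edgeR adjusted p = 0.595) and became -0.0041 without replicate 1. In males it was -0.19 ± 0.26 (adjusted p = 0.634).

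Asns encodes asparagine synthetase, a classic target of ATF4 in amino acid shortage. With 3 to 34 counts per library it was close to the limit that 3 counts set, which lay between 0.0828 and 0.355 CPM across libraries. It ranged from 0.619 to 1.88 CPM (median 1.17) in males from air-exposed dams and from 0.274 to 1.43 (median 1.06) in males from ozone-exposed dams. In females the ranges were 1.02 to 1.998 (median 1.87) and 0.964 to 2.30 CPM (median 1.02). In the latter group 5 of the 6 animals lay between 0.964 and 1.08 CPM and 1, replicate 5, at 2.30. It is the only member besides Xbp1 whose maternal difference had the same sign in both sexes, at -0.36 ± 0.39 in males and -0.49 ± 0.28 in females (edgeR adjusted p = 0.551 and 0.409).

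Counted by comparison, 1 of 7 members was called for the maternal difference in males, where 21.3% of 12541 genes were called, and that member fell, as did 11.0% of genes. The median log2 difference of the 7 was -0.19, against -0.0026 over all genes. In females 2 members had an unadjusted p under 0.05 by edgeR, as did 16% of all genes tested, and DESeq2 called 1 member. None was called by edgeR, where 0.271% of 12538 genes were. That is 34 genes, against 332 with DESeq2. The median was 0.28, against 0.00036 over all genes. In males 1 in 7 is below the share called in either direction and close to the share that fell.

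For the difference between the sexes in the maternal response, 3 of 7 members were called, all 3 more negative in males. Over 12854 genes, 23.3% were called in either direction and 11.2% in that one. The median of the 7 was -0.51, against 0.0083 over all genes. The share of 3 in 7 is above that background, but the list as such was not tested. Male and female maternal differences had opposite signs in 5 of 7 members, and in 69.1% of 12250 genes tested in both sexes, so opposite signs were about as frequent here as among genes at large.

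For males against females with air-exposed dams 2 of 7 members were called, Xbp1 and Ddit3, both higher in males. The background there was 51.5% of genes called in either direction, with 25.5% higher in males, so 2 in 7 is below the share for either direction and close to that for males higher. With ozone-exposed dams none of the 7 was called by edgeR, although Hspa5, Xbp1 and Atf4 had unadjusted p-values of 0.00692, 0.00432 and 0.00649, and DESeq2 called 1, Xbp1. In that comparison edgeR called 5.76% of genes, and 18.3% had an unadjusted p under 0.05. Hspa5 and Atf4 were then lower in males, by 0.44 ± 0.15 and 0.38 ± 0.13 log2 units (-0.44 and -0.38, edgeR adjusted p = 0.0877 and 0.0843). They had been slightly higher in males with air-exposed dams, by 0.27 ± 0.15 and 0.16 ± 0.13 (adjusted p = 0.133 and 0.312).

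**Figure D3:**
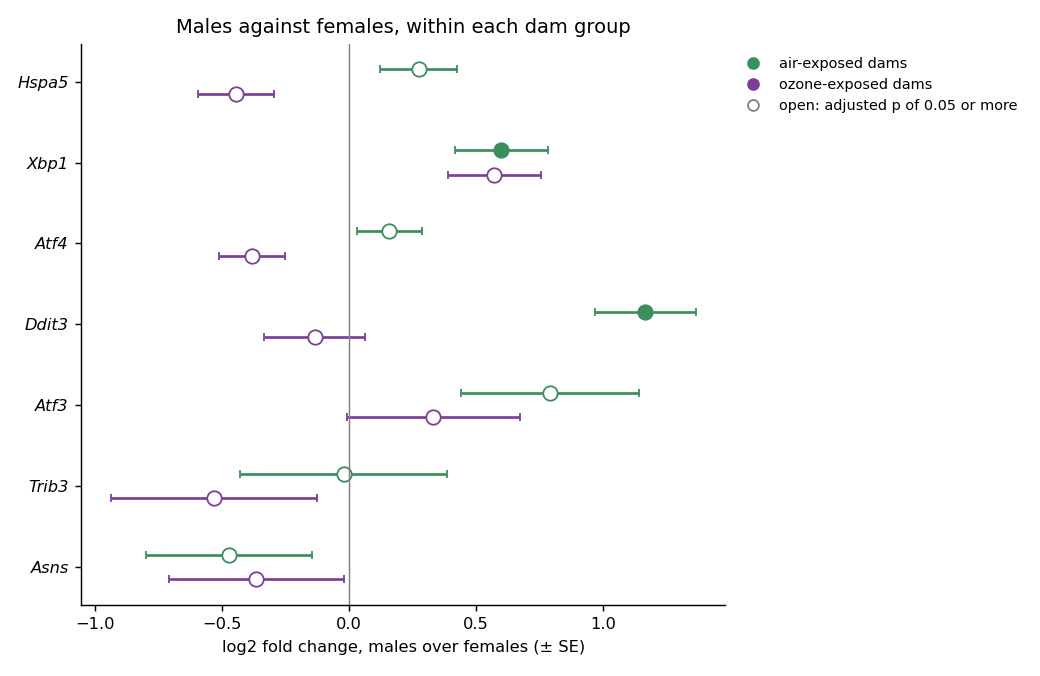
Log2 fold change of males over females (x axis, ± SE) for each gene, with air-exposed and with ozone-exposed dams, from 1 fit of 24 libraries; filled points have an edgeR adjusted p under 0.05. Xbp1 at 0.60 and Ddit3 at 1.17 are filled with air-exposed dams, and no point is filled with ozone-exposed dams.

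**Figure D4:**
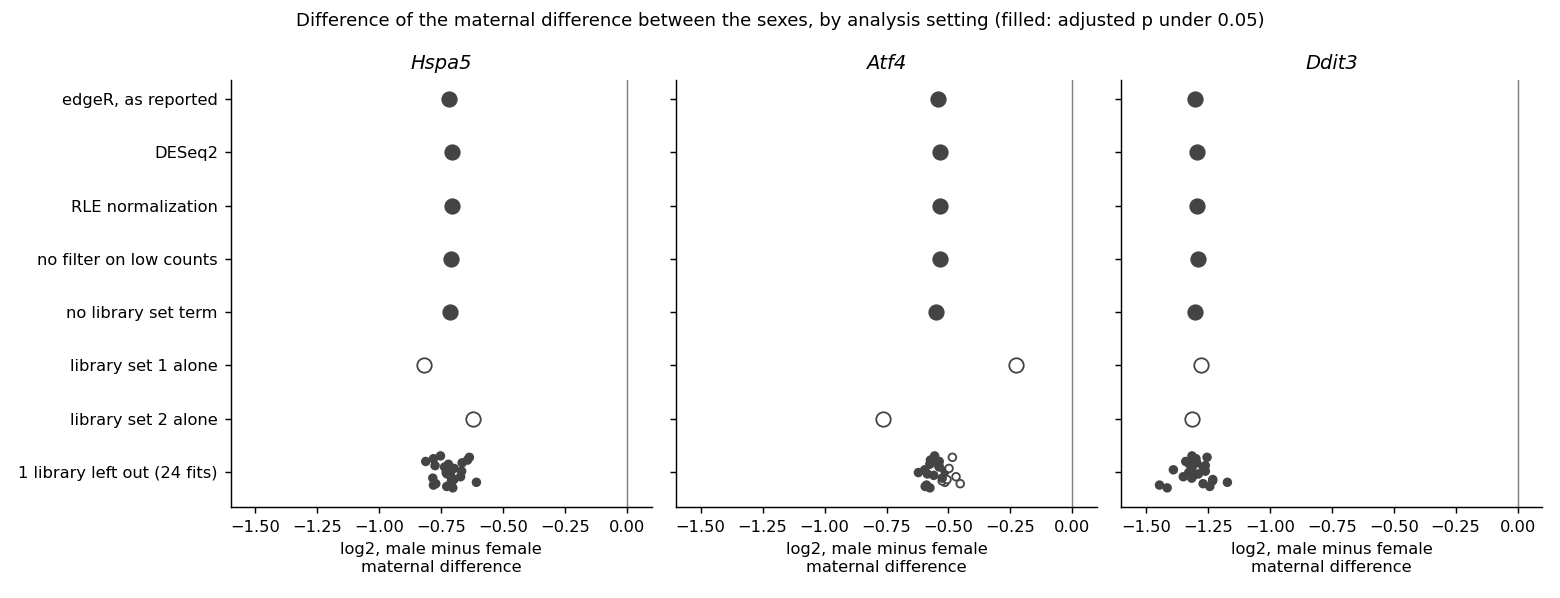
Difference of the maternal log2 difference between males and females (x axis) for Hspa5, Atf4 and Ddit3 under each analysis setting, with 24 small points for the fits with 1 library left out; filled points have an adjusted p under 0.05. Every point lies below 0, and the points of either library set alone are open.

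The order of the group means differed between genes. For Hspa5 it ran from females of ozone-exposed dams (845 CPM) through males of air-exposed (687) and ozone-exposed dams (622) to females of air-exposed dams (569.6). For Atf4 the females of ozone-exposed dams (188 CPM) and males of air-exposed dams (186) were together at the top, and males of ozone-exposed dams (143) lowest. For Ddit3 the males of air-exposed dams (7.78 CPM) stood above the other 3 groups (4.72, 4.27 and 3.44). For Xbp1 both male groups (166 and 141 CPM) stood above both female groups (110 and 91.5). The ranges of neighbouring groups overlapped in each of these orders.

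No pair of these genes passed a test for varying together among the animals of a group. Log2 CPM was taken as deviations from group means over the 24 libraries, and 21 gene pairs were compared by permutation within groups (100000 permutations). None of the 21 passed after adjustment, while 3 had an unadjusted p under 0.05. The 2 farthest libraries below are those farthest from the median in the first-named gene of a pair. Libraries extreme only in the second gene were kept. For Hspa5 and Atf3 Pearson's r was 0.45 (permutation p = 0.0304, adjusted 0.250) and Spearman's rho 0.36 (p = 0.0991, adjusted 0.452), with r of -0.11 within library set 1, 0.55 within set 2 and 0.43 without the 2 farthest libraries. For Xbp1 and Trib3 r was 0.46 (permutation p = 0.0337, adjusted 0.250) and rho 0.45 (p = 0.0484, adjusted 0.339), with r of 0.13 and 0.65 within the sets and 0.46 without the 2 farthest libraries. For Hspa5 and Xbp1 r was 0.47 (permutation p = 0.0358, adjusted 0.250) and rho 0.53 (p = 0.017, adjusted 0.249), with r of 0.66 within library set 1 and 0.56 within set 2, and 0.46 without the 2 farthest libraries. Atf4 and Ddit3 passed unadjusted by rho alone: r was 0.47 (permutation p = 0.0572, adjusted 0.301) and rho 0.53 (p = 0.0237, adjusted 0.249), with r of 0.46 and 0.47 within the sets and 0.38 without the 2 farthest libraries. All pairs share libraries and their normalization.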

How the data were processed

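Liver RNA of 24 rats was measured by polyA RNA-seq. The authors' tables, one for each sex, hold estimated counts per gene, made by the authors before deposit, and the values show no scaling for depth or length. The submitters' processing notes name Partek, STAR 2.6.1d, DESeq2 and the build rn6, without roles. The sources used here give no annotation or strand mode, so overlapping genes cannot be told apart. Another 23 columns of per-library values fit no sample label and were left out.

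Counts were rounded (totals changed by at most 0.00038%) and tested with edgeR 4.0.16 in R 4.3.3 (robust quasi-likelihood, TMM, filterByExpr with minimum count 10 and minimum total 15, library set as a term). Males and females were fitted separately for the maternal difference (12 libraries each). All 24 libraries were fitted for the interaction and the sex differences. SE are those implied by the test statistic; log2 CPM used a prior count of 2. The fits were also run on simulated counts with no difference between library sets. Few genes were changed there, all with higher mean counts than Atf3 and Asns, and no result above rests on that run. DESeq2 1.42.0 was an alternative, with its size factors.

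The members and gene lists were chosen with earlier results of these data known. Only the 7 members are named, by the symbols given with their identifiers. The tables do not pair identifiers with symbols and 0 matched the reference table, so the 7 further pathway lists, the 8 cell type marker lists (hence the tissue label) and genes of like pattern were not examined.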

Additional observations from a re-analysis of the deposited data

Results flagged for a closer look

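In 4 of 28 gene and group combinations, 1 liver stood apart from the other 5 by a gap above 0.625 of the group's range. For independent, normally distributed values chance gives about 1 in 20. CPM values need not be so distributed, and every gene was measured in the same livers, so no excess over chance can be read from this. These are Hspa5 in males from air-exposed dams (replicate 5, 948 CPM, next 699), Atf3 in females from air-exposed dams (replicate 5, 3.54 CPM, next 1.57), Trib3 in females from air-exposed dams (replicate 1, 10.4 CPM, next 5.15) and Asns in females from ozone-exposed dams (replicate 5, 2.30 CPM, next 1.08). The male that is highest for Hspa5 is also highest for Ddit3 (12.3 CPM) and Trib3 (9.91 CPM) in its group, and lowest for Asns (0.619 CPM).

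The maternal difference differed between males and females, by the edgeR test of the interaction, for Hspa5 (-0.72), Atf4 (-0.54) and Ddit3 (-1.30, all log2). The Atf4 call was kept in only 17 of the 24 fits with 1 library left out. Within either library set alone, 0 members were called. Over all genes tested for the interaction, 23.3% were called.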

How the results depend on the processing

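Of the 7 members, the number called for the maternal difference in males was 1, and it became 0 in library set 1 alone, 0 in set 2 alone and 2 with all 24 libraries in 1 fit (0 to 2 with 1 library left out). In females it was 0, and 1 with DESeq2 (0 to 0 with 1 left out). For the interaction it was 3, and 0 within either library set alone (2 to 3 with 1 left out). For the sex difference it was 2 with air-exposed dams (2 to 3 with 1 left out), and with ozone-exposed dams 0, and 1 with DESeq2 (0 to 1 with 1 left out). Each set alone has fewer samples, and calls over all genes moved too: in males from 2670 to 861 in set 1 and 121 in set 2, for the interaction from 2994 to 432 and 450, and with DESeq2 from 34 to 332 in females and from 741 to 966 between the sexes with ozone-exposed dams. With all 24 libraries in 1 fit there were 2598 in males. The 6 called results kept their direction in all 169 alternatives and fell short of the threshold in 17. Sign changes occurred in 31 alternatives, only among results not called, 28 of them with 1 library left out. The other 3 were Trib3 in males in set 1 alone (0.11), Atf3 in males in set 2 alone (0.20), and Trib3 between the sexes with air-exposed dams in set 2 alone (0.65). The ranges with 1 library left out were, in males, -0.28 to 0.11 for Atf3 and -0.35 to 0.0234 for Trib3, and in females -0.0041 to 0.72 for Trib3. For the interaction they were -0.16 to 0.0865 for Xbp1, -0.80 to 0.0477 for Trib3 and -0.10 to 0.36 for Asns, and for the sex difference of Trib3 with air-exposed dams -0.29 to 0.25. RLE normalization, no filter and no library set term changed none of these 5 numbers. No paired analysis was possible because the labels name no litter by which animals could be linked. The low counts of Asns and Atf3 limit what can be seen of them.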
